A study of Mus musculus with 3 samples.

Results

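The WASP and WAVE nucleation regulators are 10 genes taken by name: Wasf1, Wasf2, Wasf3, Wasl, Was, Abi1, Abi2, Cyfip1, Nckap1 and Cttn. Binding of SRF, the serum response factor, was looked up in every merged region that the authors assigned to one of them. Of the 10 genes, 9 had a region, among 16697 genes with a called interval in the series. They held 18 of 31850 merged regions, and Was had none. The genes were chosen by family, with the mutant and wildtype peak heights of the far Wasf1 region already known. The Wasf1 ratio is therefore a description and supports nothing else.

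Chromatin immunoprecipitation with an SRF antibody and sequencing was done on whole cornea of untreated mice of mixed background, aged about 8 weeks. A library came from Dstn-corn1 mutants, in which destrin, an actin-depolymerizing protein, is missing, and the other from wildtype mice. An input DNA library was also sequenced, and no values of it were used here. The sources used here do not give the number of mice per library, and the growth label names mutant mice for every library, against the title of the wildtype one. Whole cornea holds epithelium, stroma and endothelium, so a height is a sum over cell types. With 1 library of each genotype there is no replicate error to set a difference against, and p-values are left out. The heights are the deposited peak values, which is the maximum of the signal within a region. The number of reads behind them is unknown.

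Actin filaments that branch are started by the Arp2/3 complex, which is nearly inactive until a nucleation-promoting factor binds it. WASP (Was) and N-WASP (Wasl) do this downstream of the GTPase Cdc42, and the WAVE proteins (Wasf1, Wasf2, Wasf3) downstream of Rac. A WAVE protein works inside a complex with an Abi protein, a Cyfip protein, an Nckap1 protein and a small subunit, Brk1. Cortactin, the product of Cttn, binds Arp2/3 and filaments and stabilizes branches. SRF, with its MRTF cofactors, is known to switch on many actin cytoskeleton genes when free actin monomers become scarce, and with its TCF cofactors, which are ETS proteins, it acts on growth-responsive genes.

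Over the whole series the mutant library was lower at 95.4% of regions, with a median log2 ratio of mutant to wildtype of -1.10. Ratios were taken after adding 1 to each height, which understates differences of low regions. The sources used here do not say how the authors scaled the libraries, so each ratio is read against that median. The 3 regions at Dstn were listed at 0 in the mutant library and at 35, 11 and 13 in wildtype, which does not go against the titles. Of all 31850 regions, 38 were listed at 0 in mutant.

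The 18 regions ranged from 3 to 35 in mutant (median 12) and from 5 to 143 in wildtype (median 25.5). The authors called 17 of them in wildtype, against a background of 97.9% of all regions, and 8 in mutant, against 51.0%. Called in both libraries were 7, against 48.9%, and in wildtype only 10, against 49.0%. At least 2-fold lower in mutant were 10, against 59.0% of all regions, and at least 2-fold higher was 1, against 0.414%. The median log2 ratio of the 18 was -1.20, 0.099 below the median of all regions. As a set they were thus near the background, and the members differed among themselves. When the mutant heights were multiplied so that regions called in both libraries have the same median, 3 of the 18 were at least 2-fold lower in mutant, against 9.30% of all regions, and 8 were higher in mutant, against 43.5%.

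**Figure D1:**
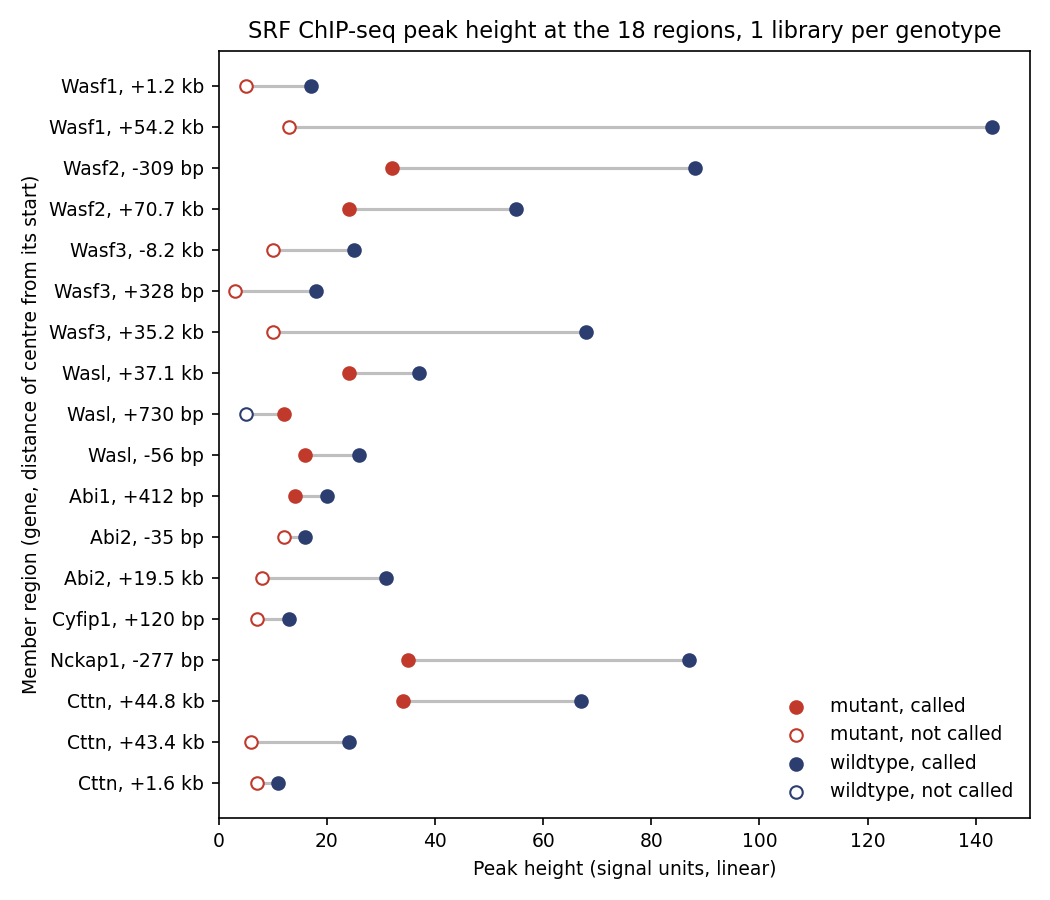
Peak height (signal units, linear axis) in the mutant and wildtype library at each of the 18 regions, labelled with the gene and the distance of the region's centre from the gene start. Filled points were called by the authors and open points were not. The region 54.2 kb into Wasf1 spans 13 to 143, whereas the points of Abi1 (14 and 20) and of the Abi2 start (12 and 16) lie close together.

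Wasf1 encodes WAVE1, best known from brain. Its highest region lay on chromosome 10 (mm10, listed from 40937324 to 40938225), centred 54240 bp past the gene start. This is the far end of the gene: the region ended 344 bp before the listed gene end at 40938569. Exons were not looked up. The mutant height was 13 and the wildtype height 143, an 11-fold difference and a log2 ratio of -3.36. The average value over the region also differed, at 4.893 in mutant and 36.107 in wildtype. In wildtype only 310 regions were higher, and the mutant height was that of a middling region, above 45.9% of all regions.

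Among the 767 regions with a wildtype height of at least 100, 3 had a lower ratio than Wasf1. The median log2 ratio of those 767 was -1.36 and their median mutant height 51. The authors called 755 of them (98.4%) in mutant, and Wasf1 was one of the 12 that were not called. A mutant height of 13 by itself was borderline for a call: of the 1561 regions at that height, 53.4% were called in mutant. Those 1561 had a median wildtype height of 26, and the Wasf1 region was the highest of them in wildtype.

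The other Wasf1 region (40884448 to 40884984) was centred 1182 bp past the start and 1573 bp upstream of Cdc40, a splicing factor gene. Its mutant height was 5 and its wildtype height 17, a log2 ratio of -1.58. Neither Wasf1 region was called in mutant, where 51.0% of all regions were. Nearby regions outside the gene gave mixed values. The unassigned regions 120.952 kb and 132.288 kb past the Wasf1 start had 19 and 70, and 7 and 36, in mutant and wildtype. On the other side, 3 regions at Ddo and Mettl24 had 17 and 28, 15 and 7, and 9 and 26. All 4 regions from Wasf1 onward were called in wildtype only, as were 49.0% of all regions, and the 2 called in mutant lay at Ddo. Whether the lower values next to Wasf1 and the value at Wasf1 share a source was not tested.

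**Figure D2:**
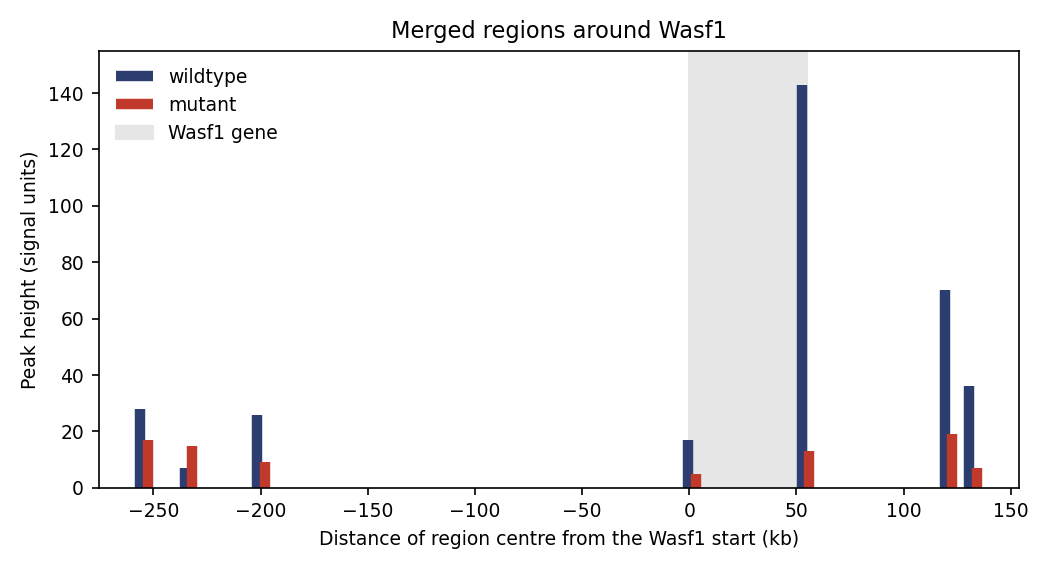
Peak height (signal units) of the 7 merged regions within 350 kb of Wasf1, by distance of the region centre from the Wasf1 start in kb; wildtype and mutant bars are moved slightly apart. The wildtype bar at 54.2 kb reaches 143 beside a mutant bar of 13, and at the far left the region 233.652 kb before the start is higher in mutant, at 15 against 7.

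The regions whose pair of heights came nearest to the Wasf1 one, by distance of log2 heights over the 2 libraries, were at 5 other loci. A region shared by Mvd, Snai3 and others had 12 in mutant and 138 in wildtype, and Traf6 had 13 and 112. Fam167a had 18 and 137, Tmem45b 13 and 103, and Dcaf5 16 and 107. With 2 libraries this likeness says only that the values are close.

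Wasf2 encodes WAVE2, the broadly expressed WAVE protein of lamellipodia. Its start region on chromosome 4 (133129555 to 133131094, centred 309 bp upstream) had a mutant height of 32 and a wildtype height of 88, a log2 ratio of -1.43. Its other region, 70699 bp past the start and beyond the gene end, is shared with Gpr3 and had 24 and 55, a log2 ratio of -1.16. Both were called in both libraries, as were 48.9% of all regions. Their ratios were far above that of the far Wasf1 region and lay 0.33 and 0.060 below the median of all regions.

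Wasf3 encodes WAVE3, and its 3 regions on chromosome 5 were all called in wildtype only, as were 49.0% of all regions. The region inside the gene 35234 bp past the start (146419952 to 146420528) reached 10 in mutant against 68 in wildtype, at a log2 ratio of -2.65, lower than at 98.2% of all regions. The start region (146384898 to 146385770) had 3 and 18, a log2 ratio of -2.25, and the region 8233 bp upstream 10 and 25, a log2 ratio of -1.24. Wasf3 thus had the second lowest ratio of the members, in a region that was high in wildtype. By the authors' mean peak value per gene, Wasf1 stood at 9 in mutant and 80 in wildtype and Wasf3 at 7.67 and 37. Of the 16697 genes, 29 had a lower ratio of these means than Wasf1 and 394 a lower one than Wasf3.

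Leaving Wasf1 aside, since its drop was known when the genes were chosen, all 5 regions of Wasf2 and Wasf3 were at least 2-fold lower in mutant, against 59.0% of all regions, and below the median of all regions. Of the 5, 2 were called in mutant, against 51.0% of all regions. The Wasf3 regions are listed through their wildtype call alone, and such regions have low mutant signal by their choice. All 15593 regions called in wildtype only had a median log2 ratio of -1.32, and the Wasf3 region 8233 bp upstream (-1.24) was not below it. With 5 regions of 2 genes and 1 library per genotype, all 5 being lower is a count and no test, and it depends on the setting. With equal medians all 5 were lower in mutant, at which 43.5% of all regions were higher in mutant. Of the 5, 2 were then at least 2-fold lower, against 9.30% of all regions. With the average value over each region 3 of the 5 were at least 2-fold lower, against 35.5% of all regions, and 4 were below the median of all regions. Both Wasf1 regions were also at least 2-fold lower in peak height, which is given as a description.

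**Figure D3:**
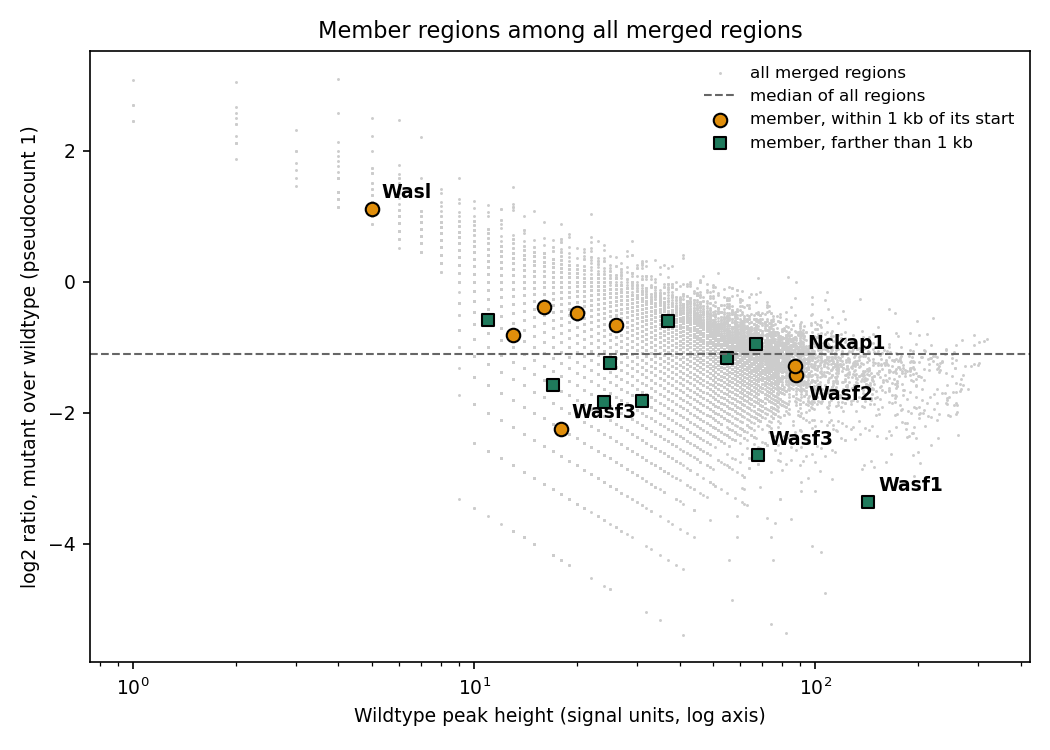
log2 ratio of mutant over wildtype height (pseudocount 1) against wildtype height (log axis) for all 31850 merged regions in grey and the 18 member regions in colour; the dashed line is the median of all regions, -1.10. Circles lie within 1 kb of the member's start and squares farther away. The far regions of Wasf1 (-3.36) and Wasf3 (-2.65) lie at the lower edge for their wildtype height, and 1 Wasl region is above 0, at 1.12.

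Wasl encodes N-WASP, the WASP protein of most tissues. Its 3 regions on chromosome 6 were all called in mutant, against 51.0% of all regions. At least 2-fold lower there were 0 of the 3, against 59.0%. All 3 lay above the median of all regions. With equal medians all 3 were higher in mutant, against 43.5%. The region called in mutant only, given below, is listed through that call. Over the start (24664649 to 24665454, centred 56 bp upstream) the heights were 16 and 26, a log2 ratio of -0.67. A region 37130 bp into the gene (24627557 to 24628174) had 24 and 37, a log2 ratio of -0.60. Between them, 730 bp past the start, a region (24664026 to 24664505) reached 12 in mutant against 5 in wildtype, at a log2 ratio of 1.12. It was called in mutant only, as were 2.10% of all regions, and such regions have low wildtype signal by their choice. These are low heights, and the difference of 7 units has no replicate behind it. By the mean peak value per gene, Wasl had 17.33 and 22.67, with a ratio above that of 91.3% of genes. That mean includes the region called in mutant only. The Wasl regions called in both libraries had ratios below that of the Abi1 region (-0.49). Was, the WASP gene of blood cells, had no region in either library.

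The upstream sequence of the WAVE genes and of Wasl is shown because SRF signal lay over some of these starts and not over that of Wasf1. The 250 bases before each start, 5′ to 3′ on the gene's strand, are from RefSeq (GRCm38.p6, the mm10 assembly). Capitals mark CCGGAA, the core of sites for ETS proteins, and GGGCGG, the GC box, on either strand.
Wasf1, chr10:40883284-40883533, plus strand, in no region: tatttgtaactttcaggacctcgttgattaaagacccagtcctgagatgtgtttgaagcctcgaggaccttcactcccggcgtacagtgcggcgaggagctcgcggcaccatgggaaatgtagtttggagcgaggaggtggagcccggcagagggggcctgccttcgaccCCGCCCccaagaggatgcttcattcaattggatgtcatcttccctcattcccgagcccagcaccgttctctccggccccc
Wasf2, chr4:133130383-133130632, plus strand, inside the start region: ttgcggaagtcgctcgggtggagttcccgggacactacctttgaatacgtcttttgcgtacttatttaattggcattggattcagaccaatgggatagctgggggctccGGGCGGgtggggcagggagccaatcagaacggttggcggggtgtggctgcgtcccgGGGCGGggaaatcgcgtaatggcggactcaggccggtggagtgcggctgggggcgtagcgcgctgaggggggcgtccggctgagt
Wasf3, chr5:146384756-146385005, plus strand, partly inside the start region: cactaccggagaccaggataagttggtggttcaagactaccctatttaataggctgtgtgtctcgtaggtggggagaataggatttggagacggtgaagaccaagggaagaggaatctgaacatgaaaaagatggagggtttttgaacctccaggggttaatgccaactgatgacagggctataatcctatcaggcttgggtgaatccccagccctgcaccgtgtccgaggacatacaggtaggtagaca
Wasl, chr6:24664996-24665245, minus strand, inside the start region: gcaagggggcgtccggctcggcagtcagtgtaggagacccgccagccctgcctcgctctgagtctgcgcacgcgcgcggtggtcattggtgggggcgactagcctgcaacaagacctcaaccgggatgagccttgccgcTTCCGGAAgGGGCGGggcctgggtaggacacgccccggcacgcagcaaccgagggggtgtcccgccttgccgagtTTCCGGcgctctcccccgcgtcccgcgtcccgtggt

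The Wasl sequence held 3 copies of CCGGAA, of which 2 overlap on opposite strands, and 1 GC box beside them. The mutant summit lay 77 bases upstream of the start and the wildtype summit 61, and the overlapping copies began 111 and 109 bases upstream. The third copy began 36 bases upstream. The distance from summit to the centre of the GC box was 22 bp in mutant and 38 bp in wildtype. To the centre of the nearest CCGGAA copy it was 30 bp in mutant and 28 bp in wildtype. Wasf2 held 2 GC boxes and 0 copies of CCGGAA, and its summits lay farther out, 233 bases upstream in mutant and 265 in wildtype. Wasf1 held 1 GC box, and Wasf3 held neither motif. Of all 32851 promoter windows of this length, 12.0% held CCGGAA and 32.7% GGGCGG. Among the 7556 windows that overlap a merged region these shares were 27.2% and 63.3%.

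The CArG box, the site that SRF itself binds, was in 0 of the 7 windows of 6 members found in the table, nor was a CArG box with 1 mismatch (both strands read, as the pattern is its own reverse complement). Abi1, with 2 overlapping windows, and Was, with 1, are included in this count. Of all windows, 1.47% held a CArG box and 17.5% one with exactly 1 mismatch. In windows overlapping a merged region the shares were 1.11% and 12.4%. These letters were searched only in the 250 upstream bases, so nothing is said of sequence elsewhere. Sequence of the far Wasf1 and Wasf3 regions was not used here. Nckap1, Abi2, Cyfip1 and Cttn were not matched.

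The partners of WAVE in its complex spanned a wide range of heights. Nckap1, the large scaffold subunit, had 1 region, over its start on chromosome 2 (80580570 to 80581914, centred 277 bp upstream), with 35 in mutant and 87 in wildtype. Its mutant height was the highest of the 18 regions, and its log2 ratio of -1.29 was 0.19 below the median of all regions. The pair of heights was close to that of the Wasf2 start, at 32 and 88. Cyfip1, the Rac-binding subunit, had 7 and 13 at a start region on chromosome 7 (55841895 to 55842487), a log2 ratio of -0.81, called in wildtype only.

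The Abi genes encode adaptors of the WAVE complex that also bind the Abl kinase. At the Abi1 start on chromosome 2 (23038915 to 23040742) the heights were 14 and 20, a log2 ratio of -0.49. This region merges 2 wildtype intervals, with heights of 15 and 20, and 1 mutant interval, and the mutant summit coincided with that of the higher wildtype interval. At the Abi2 start on chromosome 1 (60409200 to 60409968, centred 35 bp upstream) they were 12 and 16, a log2 ratio of -0.39. Both start regions were low in either library, so these ratios rest on differences of 6 and 4 units. Inside Abi2, 19513 bp past its start, a region had 8 and 31, a log2 ratio of -1.83, and was called in wildtype only. Of the 5 regions of Abi1, Abi2, Cyfip1 and Nckap1, 2 were at least 2-fold lower in mutant, against 59.0% of all regions and 39.6% of those within 1 kb of a start, where 4 of the 5 lie. Their median log2 ratio was -0.81, equal to 2 decimals to that of all regions near a start.

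Cttn had 3 regions on chromosome 7, and none was within 1 kb of its start. The highest (144425787 to 144426538) lay beyond the gene end, 44773 bp from the start, and is also assigned to Shank2, a synaptic scaffold gene. Its heights were 34 and 67, a log2 ratio of -0.96, and it was called in both libraries. A region 43398 bp from the start, close to the first, had 6 and 24, a log2 ratio of -1.84. A region 1593 bp past the start, also assigned to Ppfia1, had 7 and 11, a log2 ratio of -0.58, and was called in wildtype only, as was the previous one. Since 5 of the 18 regions are shared with another gene, here and at Wasf1 and Wasf2, the heights cannot be told apart by gene.

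Position went with height and ratio. Within 1 kb of a member's start lay 8 of the 18 regions, of 7 members, against 7234 of all 31850 regions within 1 kb of a start. These 8 had a median wildtype height of 19 and a median log2 ratio of -0.74. The 10 regions farther away had medians of 34 and -1.41. The same order held over all regions, at -0.81 for 7234 regions within 1 kb of a start and -1.18 for the other 24616. Unlike the members' regions, the 24616 include regions without an assigned gene. At least 2-fold lower in mutant were 3 of the 8, against 39.6% of all such regions, and 7 of the 10, against 64.8%. Called in mutant were 5 of the 8, against 60.6%, and 3 of the 10, against 48.2%. A CpG island, as the authors list it, was in all 8 regions near a start, against 84.6%, and in 1 of the 10 others, against 4.88%. In these counts the members were close to other regions at the same kind of position.

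Where both libraries had a call, the summits coincided closely. In the 7 regions called in both, the mutant summit was from 0 to 32 bp from the nearest wildtype summit, and in 2 of them the distance was 0. These 7 regions had a median log2 ratio of -0.96, the same to 2 decimals as the -0.96 of all 15587 regions called in both. The 10 regions called in wildtype only had a median of -1.71, against -1.32 of all 15593 such regions.

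Other genes of the pathway were taken from a list of 48, of which 43 had a region; for each gene its highest region was used. By group, 8 of 10 relatives of WASP and WAVE had a region, as did 4 of 5 genes of the WASH complex, 7 of 7 upstream GTPase genes, 15 of 17 adaptor and exchange factor genes and 9 of 9 Arp2/3 genes. Called in mutant were 33 of the 48, against 49.6% of protein-coding reference genes, and in wildtype 41, against 65.5%. For the 10 members these counts were 5 and 9. In either library 9 of the 10 members had an interval, against 66.1% of protein-coding genes, and of those 9, 5 were called in mutant, against 73.8% of genes with an interval. These shares were not adjusted for gene length or promoter type, on which a call may depend. At least 2-fold lower in mutant were 14 of the 43, against 57.7% of all genes with a region. Arpc1a and Arpc1b are both among the 14 through the same shared region. Of the 9 members with a region, 5 were at least 2-fold lower, Wasf1 among them.

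The medians of the groups ran from -0.32 to -1.12. The WASH complex genes, whose protein complex drives branching on endosomes, had a median of -0.32. Washc4 and Washc5 enter this median through regions called in mutant only. Washc1 and Washc2 had -0.83 and -0.74. The upstream GTPase genes had -0.66, with 0 of 7 at least 2-fold lower. Relatives of WASP and WAVE had -0.79, adaptors and exchange factors -0.95 and Arp2/3 genes -1.12, against -1.08 for all genes with a region. Arpc1a and Arpc1b share their highest region (-1.15), which enters the Arp2/3 median once for each gene. The 9 members had -1.29. This includes Wasf1 (-3.36), whose heights were known when the genes were chosen, so the place of the members below the groups is not independent of that choice.

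The highest regions of the list were at Rac3, a Rac GTPase gene (48 and 82), at Arpc5l (37 and 92) and at Arpc3 (28 and 89), which encode Arp2/3 subunits. The lowest ratio was at Fgd1, an exchange factor gene for Cdc42. Its region, 49271 bp past its start and shared with Tsr2, had 7 and 79, a log2 ratio of -3.32, close to that of Wasf1. Itsn1, an endocytic scaffold gene, had 13 and 64 (-2.22) at a region shared with Atp5o, and Wipf3, of the WASP-interacting proteins, 9 and 33 (-1.77). Higher in mutant were Actr3, which encodes Arp3, with 18 and 10, a log2 ratio of 0.79, and the WASH complex genes Washc4, with 20 and 17, and Washc5, with 15 and 14. The Washc4 and Washc5 regions were called in mutant only. These 3 directions hold for the heights as deposited, at which 3 of the 43 were higher in mutant, against 540 of all 16697 genes with a region. With equal medians 29 of the 43 were higher in mutant, against 43.5% of all regions. The share of all genes by their highest region was not computed at equal medians, so 29 of 43 has no like background.

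**Figure D4:**
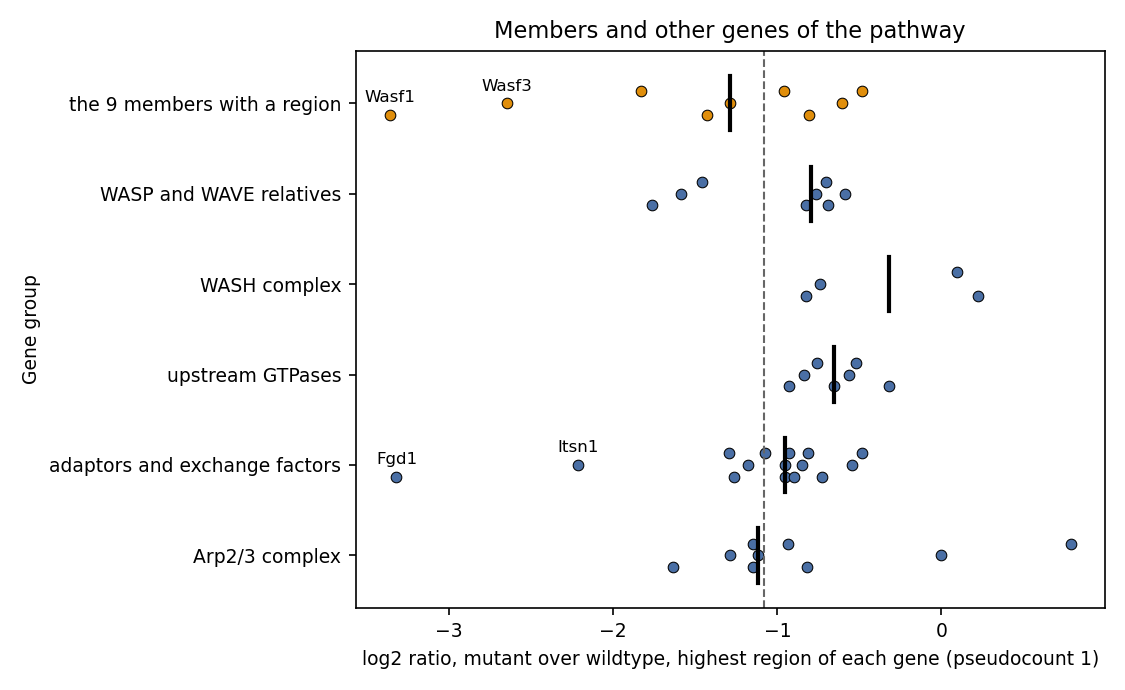
log2 ratio of mutant over wildtype (pseudocount 1) at the highest region of each gene, for the 9 members with a region and 5 groups of other pathway genes. Each point is a gene, black bars are group medians and the dashed line is the median of all genes with a region, -1.08. Wasf1 (-3.36) and Fgd1 (-3.32) have the lowest values, and the 7 upstream GTPase genes lie between -0.93 and -0.32.

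Genes of the family that are known from blood cells were looked at as a group, since cornea can hold leukocytes. Of Was, Nckap1l, Hcls1, Abi3, Rac2 and Vav1, 3 had a region: Abi3 with 29 and 44, Rac2 with 27 and 49 and Vav1 with 32 and 80. None of the 3 lay within 1 kb of a start. Of the leukocyte markers 2 of 6 had a region, of the corneal epithelium markers 4 of 5 and of the stroma markers 1 of 3. Of the blood vessel endothelium markers, Cdh5 and Pecam1, 2 of 2 had a region. Some of these regions are also assigned to other genes, as at Cd68 and Krt5. For each of these counts the background is 66.1%, the share of protein-coding reference genes with an interval in either library. SRF regions do not measure RNA, so these counts do not check which cells were in the tissue.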

How the data were processed

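SRF ChIP-seq libraries of mutant and wildtype cornea were the measurements. Per the submitters' processing notes, BWA was the aligner and mm10 the build. The sources used here do not give the caller, its threshold, duplicate removal or scaling. The authors deposited signal values: per the file headers, a peak value and an average value for each called interval and each merged region, and a mean peak value per gene. Calls, gene assignments and distances are the authors'. Coordinates are as listed; whether starts count from 0 is not stated.

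Genotype came from the sample titles. Ratios are mutant over wildtype peak values on a log2 scale, with a pseudocount of 1. Common scaling multiplied mutant values by 2.10, which sets equal medians over regions called in both libraries. The members and lists were chosen with earlier results of these data known. All members are named with every region; list genes are named for the 3 highest regions and the 3 lowest and highest ratios, beside the family's blood-cell genes. All 48 list genes matched RefSeq symbols. The ratio step was tested on simulated data. No test was run, as each genotype had 1 library. Depth is unknown. Python 3.11.15, numpy 2.4.6, pandas 2.3.3, scipy 1.17.1 and matplotlib 3.10.9 were used.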

Additional observations from a re-analysis of the deposited data

How the results depend on the processing

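No paired analysis was possible because there was a single library of each genotype. The direction of all 18 ratios was the same with a pseudocount of 5 and with the average value. The number at least 2-fold lower in mutant was 10 with that pseudocount, against 45.3% of all regions, and 7 with the average value, against 35.5%. Common scaling moves the median of all regions from -1.10 to -0.090 by construction. It gave 3 member regions at least 2-fold lower in mutant, against 9.30% of all regions: the far Wasf1 region (-2.35) and Wasf3 at its start (-1.38) and inside the gene (-1.65). The median over the members was then -0.18. With this scaling 7 regions turned to higher in mutant: Wasl at 0.44 (24627557) and 0.36 (24664649), Abi1 at 0.53, the Abi2 start at 0.62, Cyfip1 at 0.17, and Cttn at 0.090 (144425787) and 0.39 (144469063). Fewer regions entered other settings. At or above the median height of 28, 6 of 8 regions were at least 2-fold lower, against 68.6% of all regions that high, and within 10 kb of the start 5 of 11, against 49.4%. When a call also had to reach 24, the median interval height, 5 were left in mutant, against 17.8% of all regions, and 11 in wildtype, against 60.4%. Within 5 kb, 9 members had a region in place of 7. Leaving out shared regions (median -1.24) or the Wasf1 regions (median -1.06), alternatives chosen after seeing the data, left 7 of 13 and 8 of 16 at least 2-fold lower. The limit that depth sets at low heights could not be computed, since depth is unknown.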
